A study of Mus musculus with 83 samples.

Results

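The proteasome is encoded by a gene family whose symbols begin with Psm. Its members were taken here as the protein-coding genes of the count table named Psma, Psmb, Psmc, Psmd, Psme, Psmf or Psmg followed by a number, without the immunoproteasome subunits Psmb8, Psmb9 and Psmb10. This rule used names and no measured value. It gave 45 of the 37764 genes in the table, and 43 of them had enough counts to enter the test among 18325 genes. The other members were Psma8, a subunit of the testis, with at most 13 counts in a mouse, and Psmb11, the thymus subunit, which had no count in most mice and at most 2. Psme2b and Psmc3ip carry letters after the number and were not members.

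RNA with a polyA tail was sequenced from the colon of 83 male C57BL/6J/Ukj mice, for which the labels name no treatment. The groups were 3-month (16 mice), 9-month (16), 15-month (16), 24-month (17) and 28-month mice (18), and the study asked which changes over life do not follow a straight line. The RNA came from whole tissue of the proximal colon, so fewer cells of a type and less RNA per cell cannot be told apart in any value given here. Libraries were made in 3 batches, and each batch held between 4 and 7 mice of every age.

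The proteasome cuts proteins that have been tagged with ubiquitin. Its 20S core is a barrel of alpha rings, which guard the entrance, and beta rings, of which Psmb5, Psmb6 and Psmb7 do the cutting. The 19S cap binds and unfolds the substrate, with ATPases (Psmc genes) in its base and the deubiquitinase Psmd14 in its lid. Assembly chaperones help to build both pieces, and the activators Psme1 to Psme4 and the inhibitor Psmf1 bind the core in place of the cap. In gut epithelium, which renews itself quickly, the proteasome serves protein turnover in every cell, and interferon-induced subunits replace the constitutive ones where peptides are made for immune presentation.

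The promoters of the members were searched for 3 sequence motifs. RefSeq gave a promoter for 37 of the 45 members, and the 250 bases upstream of each start were searched on both strands. The ETS site CCGGAAG was found in 12 of 37 members (32.4%) and in 7.83% of all 27025 genes with a promoter. These genes include ones not tested here, and a gene counted when any of its promoter entries matched. The members were not compared with expressed genes alone. The core of the antioxidant response element, TGACNNNGC, was found in 5 members (13.5%) and in 11.5% of all genes, and CCAAT in 13 members (35.1%) and in 37.5% of all genes. The 3 motifs share no stretch by design but may lie side by side, and 7 members held 2 of them. The stretches below are from members whose counts changed with age and run 5′ to 3′ along the gene, with the motif in capitals (CTTCCGG is the ETS site on the opposite strand). Coordinates are those of GRCm38.p6.
Psmc6, ETS site, chr14:45329716-45329738, plus strand: cgggccagCCGGAAGgggcggag
Psmd2, ETS site, chr16:20651618-20651640, plus strand: gcagggcgCTTCCGGtctggagg
Psmd6, ETS site, chr14:14120976-14120998, minus strand: agacgcgaCCGGAAGtcagactg
Psmd12, ETS site, chr11:107479503-107479525, plus strand: gcgggcgaCTTCCGGtgcgagtg
Psme3, ETS site, chr11:101316098-101316120, plus strand: cacaaggcCCGGAAGctccgaca
Psmb5, antioxidant response element core, chr14:54618026-54618050, minus strand: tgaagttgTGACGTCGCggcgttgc
Psmd9, antioxidant response element core, chr5:123228151-123228175, plus strand: ctagccggTGACCCCGCccacttcc
A match is a description of the letters and not of a bound factor. Of the members lower at 28 than at 15 months, 8 of the 21 with a promoter held the ETS site, and of the other members 4 of 16 did.

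The total count over genes ran from 23026370 to 75838290 read pairs in a mouse, and the members together took between 0.319% and 0.445% of it. Every epithelial, goblet and smooth muscle marker examined passed the filter on low counts. Some mice lay at the ends of these measures. In 3 of the 3-month mice the 5 smooth muscle markers summed to between 772 and 1153 CPM (CPM, counts scaled to a library of 1000000), close to the 1176 CPM of the next mouse, which was 9 months old, and the other 79 mice had 1466 to 4859 CPM. In 1 of the 15-month mice the 6 epithelial markers summed to 5598 CPM, against at least 7287 CPM in the other 82, and in 1 of the 9-month mice the structural subunits lay on average 0.38 above their mean on the log2 scale, against at most 0.20 in the others. Counts of called members without these mice are given beside the comparisons they enter. Without the 9-month mouse they were the same, with 1 called at 9 against 3 months and 0 at 15 against 9 months.

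The members differed widely in level, and by median the parts of the 26S particle were more abundant than their assembly chaperones (the plot of levels by gene). Per exon length, in TPM (transcript counts scaled by length to a fixed total), the 31 structural subunits ran from 34.1 to 239, with a median of 102.5. The 4 chaperones of the 20S core ran from 9.42 to 41.9 (median 24.0) and the 3 chaperones of the base from 8.69 to 43.3 (median 20.1). The ranges overlapped, since the chaperones Psmd10 (43.3) and Psmg4 (41.9) lay above the structural subunits Psmd1 (36.3) and Psmd11 (34.1). Psme2, which forms the PA28 activator with Psme1, was the most abundant member at 278 ± 24.9 TPM (SD, n = 83), and Psma6 of the alpha ring followed at 239 ± 15.3. Psmd9, a chaperone of the base, was the least abundant of those tested at 8.69 ± 0.643. Of the 42 pairs of neighbours in this order, 14 differed within a mouse by more than 1 SD of that difference and 28 did not. The catalytic subunits did not have equal levels, with 208.5 ± 19.8 TPM for Psmb5, 161 ± 10.7 for Psmb6 and 58.3 ± 3.93 for Psmb7.

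**Figure D1:**
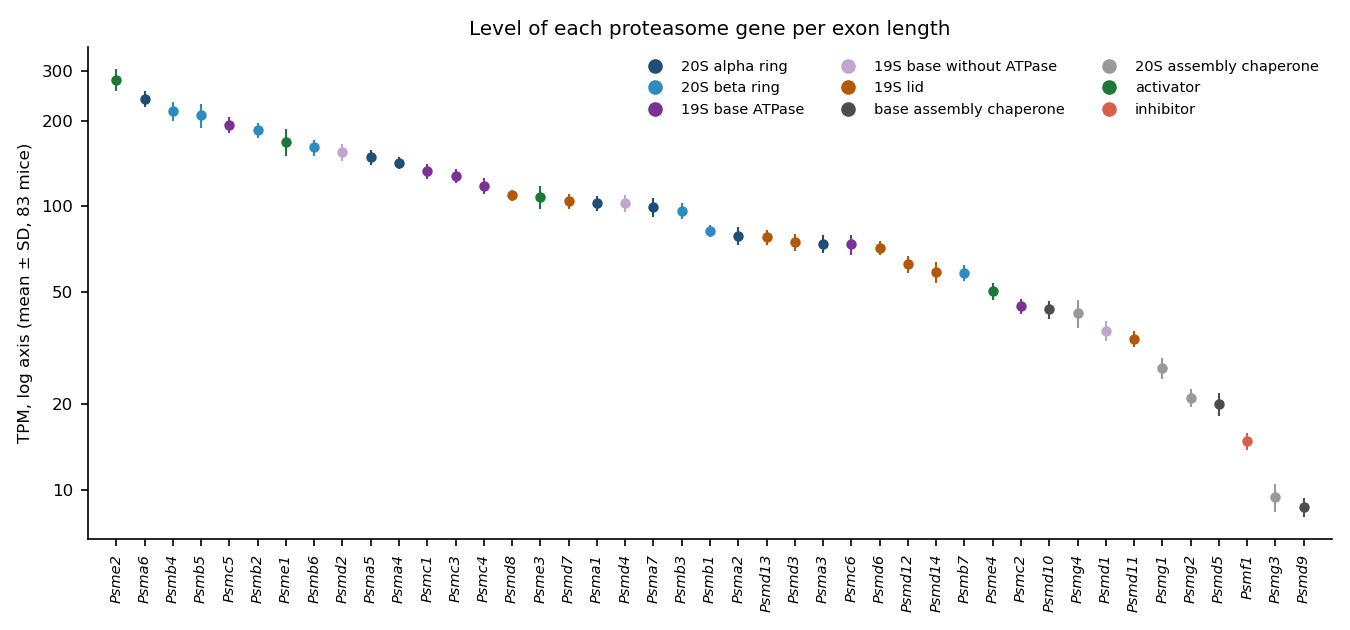
Mean TPM (log axis) of each tested member over 83 mice, with bars of 1 SD, ordered by level and coloured by role. Psme2 (278) and Psma6 (239) lead, and the chaperones Psmg3 (9.42) and Psmd9 (8.69) and the inhibitor Psmf1 (14.9) are at the low end.

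The structural subunits varied together between mice of the same age and batch. After age and batch had been removed, each of the 31 subunits was set against the mean of the other 30 over the 83 mice. Pearson's r ran from 0.29 for Psmd1 to 0.91 for Psmd13, a lid subunit, with a median of 0.79 (median Spearman's rho 0.75). Over all 18325 genes tested, r with the mean of the structural subunits had a median of -0.01 and a 95th percentile of 0.56. These values describe libraries that share depth and composition, and no test was made. The 20S chaperones had r between 0.50 and 0.56, whereas Psme4 (r = -0.06), Psmf1 (r = 0.20) and the ATPase Psmc6 (r = 0.38) followed the mean less. Among genes outside the family, the 20S assembly factor Pomp (r = 0.73) and the ubiquitin receptor Adrm1 (r = 0.68) had the highest values of the 39 other ubiquitin-proteasome genes listed. The proteasome adaptor and scaffold Ecpas had the lowest (r = -0.53).

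**Figure D2:**
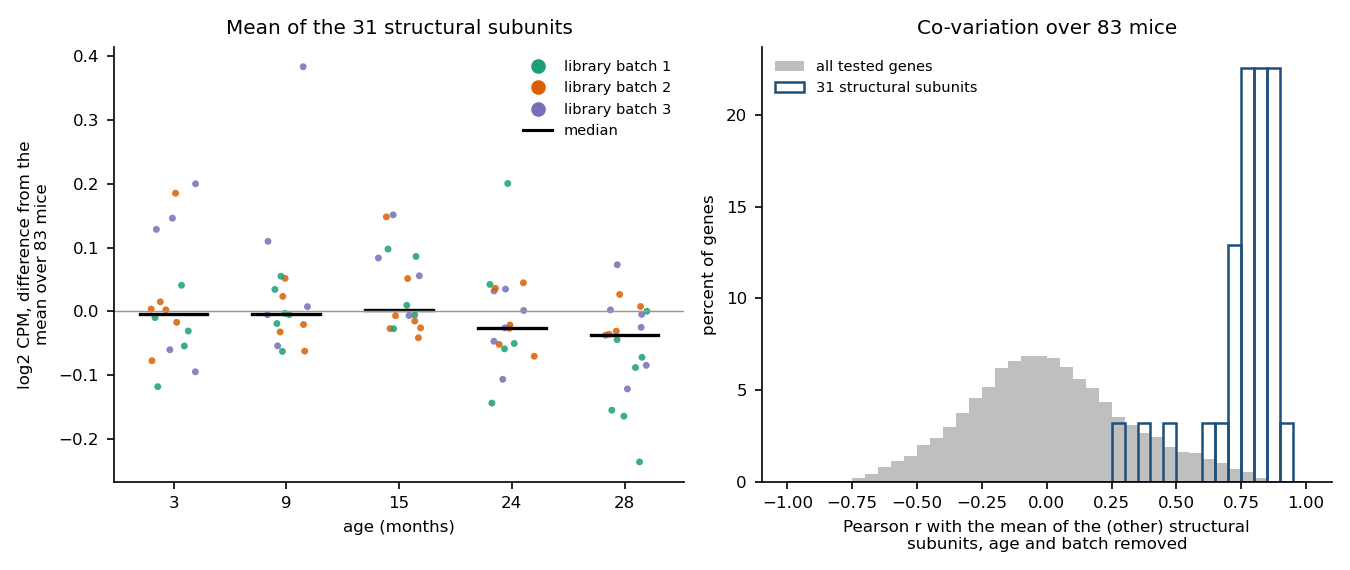
Left, mean log2 CPM of the 31 structural subunits in each mouse, as the difference from the mean over 83 mice, by age and coloured by library batch, with the median of each age as a line. Right, percent of genes by Pearson's r with the mean of the (other) structural subunits for the 31 subunits (outline, median 0.79) and for all tested genes (grey, median -0.01).

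More proteasome genes fell than rose in the oldest mice, by small amounts. Log2 fold changes are given as older minus younger, each with its standard error (SE), and adjusted p-values come from the quasi-likelihood test of edgeR, adjusted after Benjamini-Hochberg over all 18325 genes tested, with a threshold of 0.1. Between 28 and 15 months, 26 of 43 members (60.5%) fell and 2 rose, while 22.2% of all genes tested were lower and 20.2% were higher. Between 28 and 3 months, 19 of 43 (44.2%) fell and 2 rose, beside 25.9% lower and 23.5% higher among all genes. Both comparisons share the 28-month mice. All 31 structural subunits had a negative fold change in both, with a median of -0.09 at 28 against 15 months and -0.07 at 28 against 3 months, and the medians over all genes were -0.0029 and -0.0087. A change of this size is about the spread between mice, since the SD of a structural subunit within age and batch had a median of 0.11 on the log2 scale, against 0.20 over all genes tested.

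Mice of the ages overlapped for every member in both comparisons. The mean of the structural subunits in a 28-month mouse lay between -0.24 and 0.07, with a median of -0.04, and in a 15-month mouse between -0.04 and 0.15, with a median of 0.0020. At 3 months it lay between -0.12 and 0.20. Within library batches, the median difference of the structural subunits at 28 against 15 months was -0.14, -0.02 and -0.09 in batches 1, 2 and 3, and 31, 21 and 27 of the 31 were negative. At 28 against 3 months it was -0.07, -0.02 and -0.08, with 29, 25 and 28 negative. The difference was thus smallest in batch 2 in both comparisons.

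**Figure D3:**
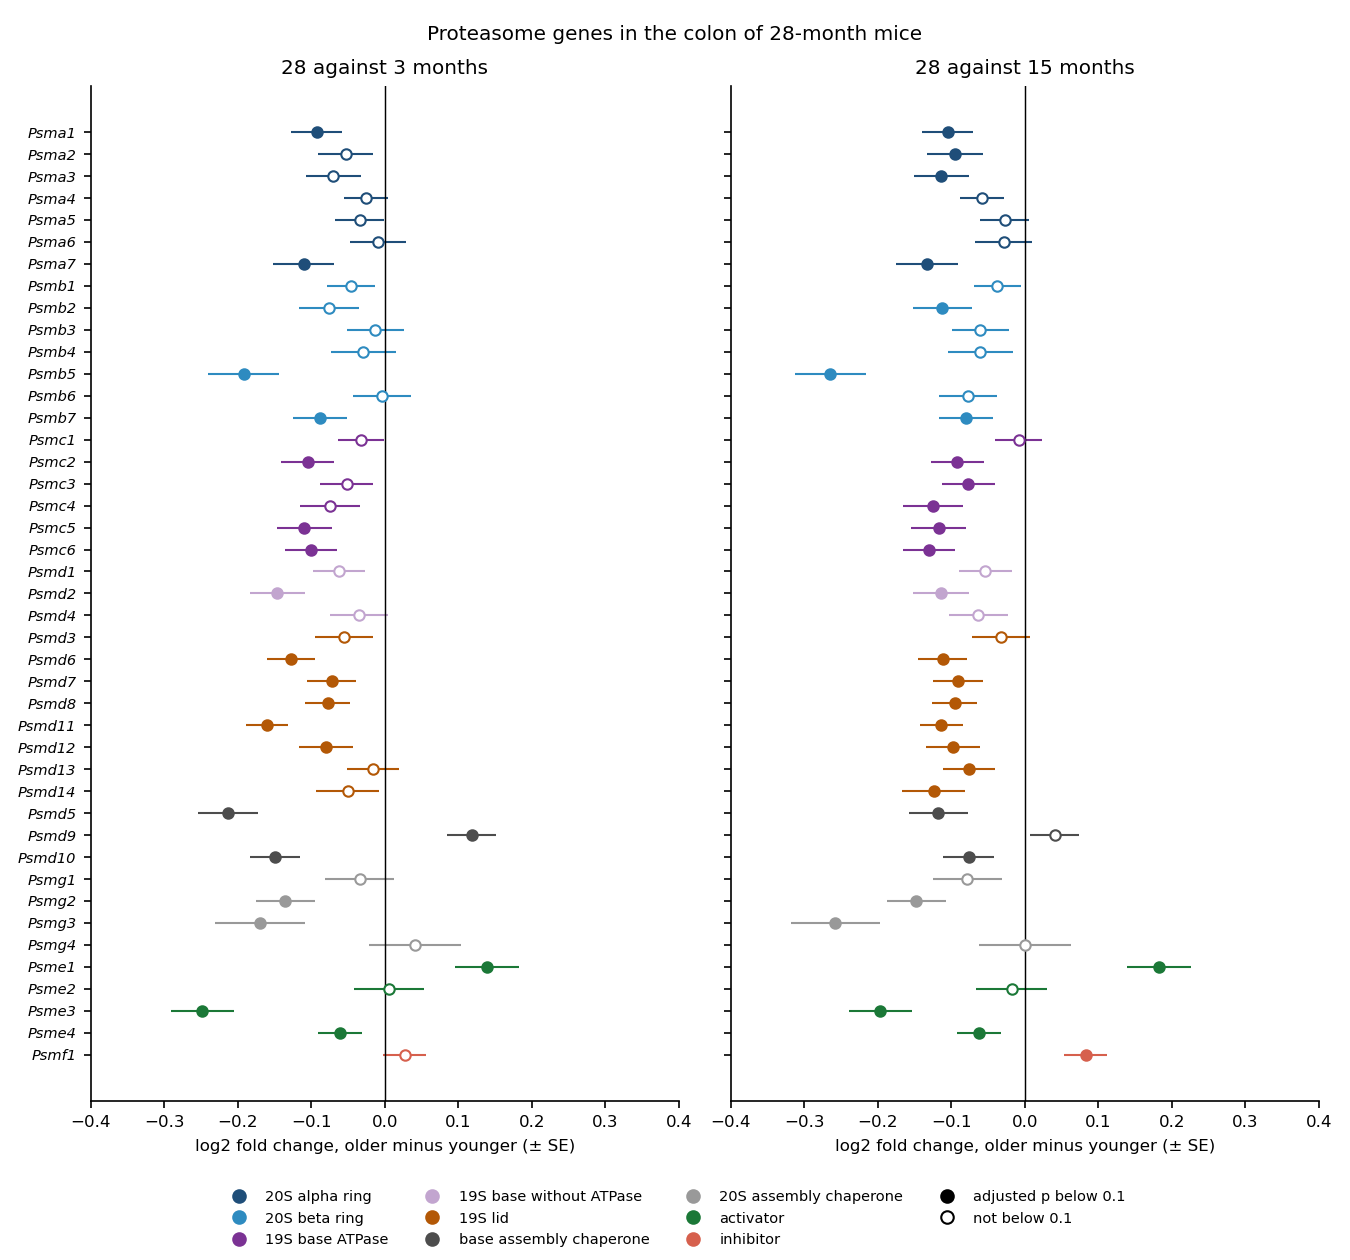
Log2 fold change ± SE of the 43 tested members at 28 against 3 months (left) and 28 against 15 months (right), coloured by role. Filled points have an adjusted p below 0.1 in edgeR's quasi-likelihood test (21 on the left and 28 on the right), and Psme1, Psmd9 and Psmf1 are the filled points above 0.

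The counts depended on the scaling and on a few mice. When counts were scaled by library totals alone, which put the median of all genes at 0.04 and 0.03 in the 2 comparisons, 12 members fell and 3 rose at 28 against 15 months, and 11 fell and 3 rose at 28 against 3 months. Without the 3 mice of 3 months that had few smooth muscle counts, 10 members fell and 2 rose at 28 against 3 months (9 and 2 when the 9-month mouse next to them was left out too), and without the 15-month mouse with few epithelial counts 22 fell and 2 rose at 28 against 15 months. Leaving out 1 mouse of 28 months at a time gave 21 to 26 called members in all at 28 against 15 months and 16 to 22 at 28 against 3 months. Shares of all genes called are given for the main fit only. Whether the members' share stood above that of all genes under these settings, or in the marker fit below, is therefore not shown. Cell type markers moved in the same comparisons. All 4 goblet markers fell in both, and their summed level ran from 20170 to 26330 CPM at 28 months, from 14230 to 32490 CPM at 15 months and from 22690 to 30130 CPM at 3 months. All 3 tuft cell markers also fell in both, and 3 of 4 B cell markers fell in each. All 3 plasma cell markers fell at 28 against 15 months and 1 at 28 against 3 months. Of the 4 stem and cycling markers 1 and 3 fell, and of the 3 endothelial markers 2 and 3 rose, in the same order. Both erythroid markers rose in both comparisons, with a median of 0.77 at 28 against 15 months and 1.32 at 28 against 3 months. In each comparison 2 of 3 neutrophil markers rose and 1 fell, 1 of 3 enteroendocrine markers fell and 1 of 3 adipocyte markers rose. At 28 against 15 months 1 of 4 colonocyte markers fell, and 1 of 3 enteric glia and 1 of 4 fibroblast markers rose. At 28 against 3 months 1 of 4 fibroblast markers fell and 1 rose, and the 1 acinar pancreas marker tested rose. No smooth muscle or enteric neuron marker passed in either comparison. Of the 6 epithelial markers, 3 fell at 28 against 3 months and none passed the threshold at 28 against 15 months (7287 to 9673, 5598 to 9551 and 7982 to 10010 CPM at 28, 15 and 3 months). No marker in these lists was below 1 CPM in every mouse, and their part in the members' differences was not tested beyond a fit with epithelial, smooth muscle and B cell scores, in which 10 members fell and 2 rose at 28 against 3 months and 24 fell and 2 rose at 28 against 15 months.

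In the 20S core, the share of subunits called at 28 against 3 months (28.6% in each ring) was near the 25.9% of all genes. At 28 against 15 months the share was 57.1% in the alpha ring and 42.9% in the beta ring, beside 22.2% of all genes. Of the 7 alpha subunits tested, 4 fell at 28 against 15 months and 2 at 28 against 3 months, with fold changes between -0.13 and -0.03 in the first. Of the 7 beta subunits, 3 and 2 fell, with fold changes between -0.26 and -0.04 at 28 against 15 months. Psmb5 (ENSMUSG00000022193, chr14:54614119-54618022 on GRCm38), the chymotrypsin-like catalytic subunit, had 52.2 to 77.1 CPM at 3 months with a median of 61.3, 58.6 to 77.9 CPM at 15 months with a median of 64.3, and 45.5 to 63.2 CPM at 28 months with a median of 56.0. Medians were 62.5 CPM at 9 months and 60.4 CPM at 24 months. All 18 mice of 28 months were thus below the median of the 15-month mice, although the ages overlapped. Psmb5 fell by 0.26 ± 0.05 on the log2 scale at 28 against 15 months (adjusted p = 1.05e-05), by 0.19 ± 0.05 at 28 against 3 months (adjusted p = 0.000789) and by 0.16 ± 0.05 at 28 against 24 months (adjusted p = 0.0238). The first is the lowest fold change of any member, and within batches 1, 2 and 3 it was -0.32, -0.15 and -0.33. Of the gene's 100-base windows, 22.2% also occur in other genes, among them the pseudogene Gm3375, so some of its reads could have been lost as not unique.

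The other catalytic subunits moved less. Psmb7, the trypsin-like subunit, had 57.3 to 80.5 CPM at 3 months (median 65.2), 60.3 to 73.0 at 15 months (median 66.9) and 54.7 to 69.9 at 28 months (median 63.5). It fell by 0.08 ± 0.04 at 28 against 15 months (adjusted p = 0.0808), but batch 2 had 0.01 and the call was lost under 8 of 10 other settings. It fell by 0.09 ± 0.04 at 28 against 3 months (adjusted p = 0.0436). This call was lost under 5 of 10 other settings and in 4 of 18 fits without 1 mouse of 28 months. The caspase-like subunit Psmb6 had medians of 96.3 CPM at 3 months, 101 at 15 months and 97.5 at 28 months. Its fold change of -0.0035 at 28 against 3 months did not pass the threshold (adjusted p = 0.953, 95% interval -0.08 to 0.07), and neither did -0.08 at 28 against 15 months (adjusted p = 0.119, 95% interval -0.15 to -0.0003). Whether Psmb5 differed from Psmb6 in its change was not tested.

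In the base of the 19S cap, 5 of the 6 ATPases fell at 28 against 15 months, when 22.2% of all genes were lower, and 3 at 28 against 3 months, when 25.9% were. Psmc6, an ATPase that has both an ETS site (printed above) and the antioxidant response element core upstream, had 74.9 to 103 CPM at 3 months, 79.7 to 116 CPM at 15 months and 70.4 to 94.7 CPM at 28 months, with medians of 86.5, 86.3 and 80.1. It fell by 0.13 ± 0.04 at 28 against 15 months (adjusted p = 0.00274). Psmc1 was the ATPase with the value nearest 0, at -0.0082. Among the base subunits without ATPase, the scaffold Psmd2 fell in both comparisons, by 0.11 and by 0.15, and Psmd1 and the ubiquitin receptor Psmd4 did not pass the threshold in either.

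In the lid, 7 of 8 subunits fell at 28 against 15 months (22.2% of all genes) and 5 of 8 at 28 against 3 months (25.9% of all genes). Psmd11, a scaffold of the lid, had 66.5 to 86.7 CPM at 3 months (median 74.2), 55.9 to 78.4 at 15 months (median 73.7) and 58.2 to 72.5 at 28 months (median 68.3). It fell by 0.16 ± 0.03 at 28 against 3 months (adjusted p = 4.26e-06), and all 18 old mice were below the median of the young ones. Psmd14, which strips ubiquitin from the substrate, had 51.7 to 65.8 CPM at 15 months, 45.3 to 62.5 CPM at 24 months and 41.6 to 59.4 CPM at 28 months, with medians of 56.1, 55.5 and 52.1. It fell by 0.12 ± 0.04 at 28 against 15 months (adjusted p = 0.0184) and by 0.11 ± 0.04 at 28 against 24 months (adjusted p = 0.0898). At 28 against 3 months it stood at -0.05 ± 0.04 (adjusted p = 0.346), where the 3-month mice ranged from 41.8 to 67.4 CPM. The call at 28 against 24 months was lost under 6 of 10 other settings. Another annotated gene, Gm25966, overlaps Psmd14 on the same strand.

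**Figure D4:**
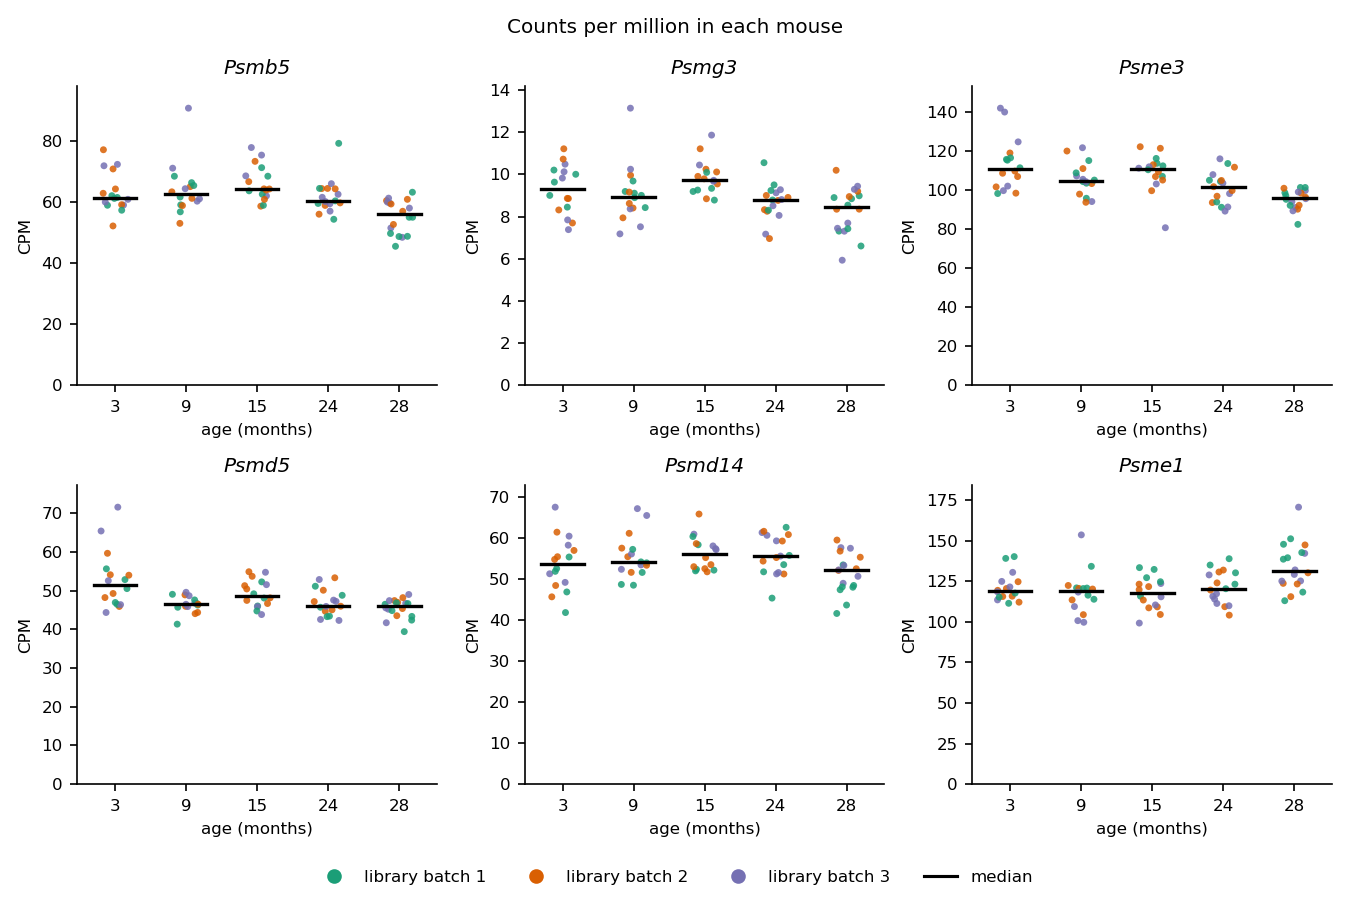
CPM of 6 members in each mouse by age, coloured by library batch, with the median of each age as a line and axes from 0. Psmb5, Psmg3 and Psme3 have their lowest medians at 28 months (56.0, 8.45 and 96.0 CPM), Psmd5 has its highest at 3 months (51.5 CPM) and Psme1 has its highest at 28 months (131 CPM).

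Of the 7 assembly chaperones, 4 fell and 1 rose at 28 against 3 months, beside 25.9% lower and 23.5% higher among all genes, and 4 fell at 28 against 15 months, beside 22.2% lower. Psmg3 (ENSMUSG00000029551, chr5:139823592-139826885), which pairs with Psmg4 to help form the alpha ring, had 7.38 to 11.2 CPM at 3 months (median 9.32), 8.78 to 11.9 at 15 months (median 9.76) and 5.93 to 10.2 at 28 months (median 8.45). Of the 28-month mice, 17 of 18 were below the 15-month median. Psmg3 fell by 0.26 ± 0.06 at 28 against 15 months (adjusted p = 0.000533), by 0.17 ± 0.06 at 28 against 3 months (adjusted p = 0.0187) and by 0.19 ± 0.06 at 24 against 15 months (adjusted p = 0.0477). The last difference was -0.01 in batch 1, and the call was lost with no filter on low counts. Psmg2 also fell in both comparisons with 28 months, by 0.15 and 0.14, while Psmg1 and Psmg4 did not pass the threshold.

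The chaperones of the base went in different directions. Psmd5 (ENSMUSG00000026869, chr2:34849734-34874968) had 44.3 to 71.5 CPM at 3 months (median 51.5), 41.3 to 49.5 at 9 months (median 46.4) and 39.4 to 49.0 at 28 months (median 46.0). All 16 mice of 9 months and all 18 of 28 months lay below the 3-month median, while the ages overlapped. Psmd5 fell by 0.18 ± 0.04 at 9 against 3 months (adjusted p = 0.00454) and by 0.21 ± 0.04 at 28 against 3 months (adjusted p = 1.19e-05). Without the 3 mice of 3 months with few smooth muscle counts these were -0.10, which did not pass the threshold, and -0.13, which did, and leaving out the 9-month mouse as well gave -0.11 and -0.13 with the same calls. Psmd10, also known as gankyrin, fell by 0.15 ± 0.04 at 28 against 3 months. Psmd9 had 18.0 to 22.6 CPM at 3 months (median 19.6) and 18.5 to 24.2 at 28 months (median 21.8). It rose by 0.12 ± 0.03 (adjusted p = 0.00265), with 16 of 18 old mice above the young median, and at 28 against 15 months it stood at 0.04 ± 0.03 (adjusted p = 0.356).

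The activators also went in different directions. Psme1 (ENSMUSG00000022216, chr14:55578123-55581529), the alpha subunit of PA28, is induced by interferon gamma together with Psme2, its partner and neighbour on chromosome 14. It had 111.5 to 140.3 CPM at 3 months (median 119), 99.3 to 133.5 at 15 months (median 118), 104 to 139 at 24 months (median 120.5) and 113 to 171 at 28 months (median 131). The ages overlapped, but 16 of 18 mice of 28 months were above the 15-month median. Psme1 rose by 0.18 ± 0.04 at 28 against 15 months (adjusted p = 0.000607), by 0.14 ± 0.04 at 28 against 3 months (adjusted p = 0.00718) and by 0.14 ± 0.04 at 28 against 24 months (adjusted p = 0.0345), and its difference was positive in each of the 3 batches each time.

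Psme2 did not pass the threshold in any comparison. Its medians were 160.4 CPM at 3 months, 162 at 15 months and 159 at 28 months, its fold change at 28 against 15 months was -0.02 (adjusted p = 0.812, 95% interval -0.11 to 0.08), and 18.4% of its 100-base windows also occur in Psme2b. The log2 ratio of Psme1 to Psme2 counts, which was looked at after these values were seen and was not tested, had a median of -0.40 at 3 months, -0.46 at 15 months and -0.28 at 28 months, and all 18 mice of 28 months lay above the 15-month median.

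Psme3 (ENSMUSG00000078652, chr11:101316213-101323537), which forms the nuclear activator PA28 gamma, moved the other way. It had 98.3 to 142 CPM at 3 months (median 111), 80.8 to 122 at 15 months (median 111) and 82.5 to 101 at 28 months (median 96.0), with medians of 105 at 9 months and 102 at 24 months. All 18 mice of 28 months were below the medians of the 3, 15 and 24-month mice. Psme3 fell by 0.25 ± 0.04 at 28 against 3 months (adjusted p = 1.99e-06) and by 0.20 ± 0.04 at 28 against 15 months (adjusted p = 0.000185). Psme4, which forms the nuclear activator PA200, had medians of 139 CPM at 3 months and 133.5 at 28 months and fell by 0.06 ± 0.03 in both comparisons (adjusted p = 0.0921 at 28 against 3 months and 0.0993 at 28 against 15 months), with a positive difference in batch 3 in the latter. Other settings ended these calls in 9 and 8 of 10 cases. The inhibitor Psmf1, known as PI31, had 25.9 to 33.7 CPM at 15 months (median 30.7) and 29.8 to 37.3 at 28 months (median 32.5), and it rose by 0.08 ± 0.03 (adjusted p = 0.019). At 28 against 3 months its fold change was 0.03 ± 0.03 (adjusted p = 0.473).

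Between neighbouring ages few members passed the threshold. At 9 against 3 months 1 of 43 fell, Psmd5, and none rose, while 5.05% of all genes were lower and 3.64% higher. At 15 against 9 months no member passed in edgeR's test, no member had an unadjusted p under 0.05, DESeq2 called none either, and 0.180% of all genes were lower and 0.251% higher. At 24 against 15 months 3 members fell, namely Psmg3 (above), Psmc6 and the lid subunit Psmd6, and none rose, beside 7.24% lower and 6.28% higher among all genes. None of these 3 calls held under all of the other settings, which left 0 to 5 members called. Psmc6 fell by 0.11 ± 0.04 (adjusted p = 0.0558) and Psmd6 by 0.09 ± 0.03 (adjusted p = 0.0906), from a median of 66.6 CPM at 15 months to 63.4 CPM at 24 months. Without the 15-month mouse that had few epithelial counts 3 members were again lower, but only 1, Psmg3, was shared with the 3 named here. The fold change of Psmd6 was then -0.08, close to its value with that mouse, and that of Psmc6 was -0.07. At 28 against 24 months Psmb5 and Psmd14 fell and Psme1 rose, beside 6.01% lower and 5.66% higher among all genes. In each of these 4 steps the share of members called was below that of all genes in both directions.

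Although single members rarely passed between 15 and 24 months, all 31 structural subunits had a negative fold change there, between -0.11 and -0.01 with a median of -0.05, and 26 of 31 had one between 24 and 28 months, with a median of -0.03. Within batches the latter step had a median of -0.11 in batch 1 and 0.0039 and 0.0024 in batches 2 and 3. At 9 against 3 months and at 15 against 9 months, 10 and 13 of the 31 were negative. Neighbouring steps share mice, and no correlation between them is given.

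Over the 5 ages together, 26 of 43 members (60.5%) differed in edgeR's quasi-likelihood test, near the 54.9% of all genes tested. With counts scaled by library totals alone 12 members differed. The lowest p-values of the main fit belonged to Psme3 (adjusted p = 1.11e-05), Psmd5 (adjusted p = 4.77e-05) and Psmd11 (adjusted p = 5.13e-05). Age accounted for a median of 11.5% of the variance of a member's log2 CPM and library batch for 5.85%, against 11.9% and 3.04% over all genes. A trajectory that departed from linearity with age was called for 5 of 43 members (11.6%), beside 16.2% of all genes. These were Psmb5 (adjusted p = 0.014), Psme1 (adjusted p = 0.0511), Psmd5 (adjusted p = 0.0514), Psmg3 (adjusted p = 0.0953) and Psmd14 (adjusted p = 0.0954). Only Psmb5 passed at a threshold of 0.05, 2 members were called with no filter on low counts and 8 with marker scores as covariates, and DESeq2 called 4, of which 3 were among these 5. Psmb5, Psmg3 and Psmd14 had their highest median at 15 months and their lowest at 28 months, whereas Psme1 had medians between 118 and 120.5 CPM until 24 months and 131 CPM at 28 months.

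Of the immunoproteasome subunits, which replace the catalytic ones after interferon signalling, 2 of 3 rose in the oldest mice. This was so at 28 against 15 months and at 28 against 3 months, beside 20.2% and 23.5% of all genes higher. Psmb8, which replaces Psmb5, had 57.2 to 112 CPM at 15 months (median 78.2) and 62.0 to 196 at 28 months (median 99.3), and it rose by 0.43 ± 0.11 (adjusted p = 0.00115). Psmb9, which replaces Psmb6, rose by 0.44 ± 0.10 in the same comparison (adjusted p = 0.000154), from a median of 33.8 to 44.9 CPM. Psmb10, which replaces Psmb7, had medians of 106 and 108 CPM and a fold change of 0.05 ± 0.06 (adjusted p = 0.535).

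The ratio of each inducible subunit to its constitutive counterpart within a mouse does not depend on the scaling. Ratios are of counts and not per length, so that only differences between ages are read. The log2 ratio of Psmb8 to Psmb5 lay between -0.54 and 0.91 at 3 months (median 0.40) and between 0.22 and 1.93 at 28 months (median 0.77). Its mean was higher at 28 than at 3 months by 0.57 (two-sided permutation test with 100000 resamples, p = 0.00088, adjusted p = 0.00983 over 15 tests), in 15 of 18 old mice above the young median, and by 0.56, 0.49 and 0.57 within the 3 batches. It was also higher at 28 than at 24 months, by 0.45 (permutation p = 0.00301, adjusted p = 0.0151). For Psmb9 to Psmb6 the difference was 0.41 at 28 against 3 months (permutation p = 0.00131, adjusted p = 0.00983), 0.26 at 28 against 24 months (permutation p = 0.0269, adjusted p = 0.0671) and 0.21 at 24 against 15 months (permutation p = 0.0159, adjusted p = 0.0598). The Psmb10 to Psmb7 ratio was higher by 0.18 at 28 against 24 months (permutation p = 0.0227, adjusted p = 0.0671) and stood at 0.02 at 28 against 3 months (permutation p = 0.756, adjusted p = 0.814).

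Immune cell markers changed at some of the same ages as these ratios. Of the 3 macrophage markers 2 rose at 28 against 3 months and 2 at 28 against 15 months, and their sum ran from 39.6 to 112 CPM at 28 months and from 45.1 to 74.0 CPM at 3 months. Of the 4 T cell markers 1 and 2 rose, with a sum of 12.1 to 47.8 CPM at 28 months and 11.9 to 24.5 CPM at 3 months. At 24 against 15 months 2 of 3 macrophage markers rose, with a median fold change of 0.24 over the 3, and 2 of 3 neutrophil markers rose, with a median of 1.09. At 28 against 24 months no macrophage or T cell marker passed the threshold, with median fold changes of 0.05 and 0.08, while all 4 B cell markers fell, with a median of -0.80, and 1 of 3 plasma cell markers fell. None of these markers was below 1 CPM in every mouse, and their part in the ratios was not tested.

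**Figure D5:**
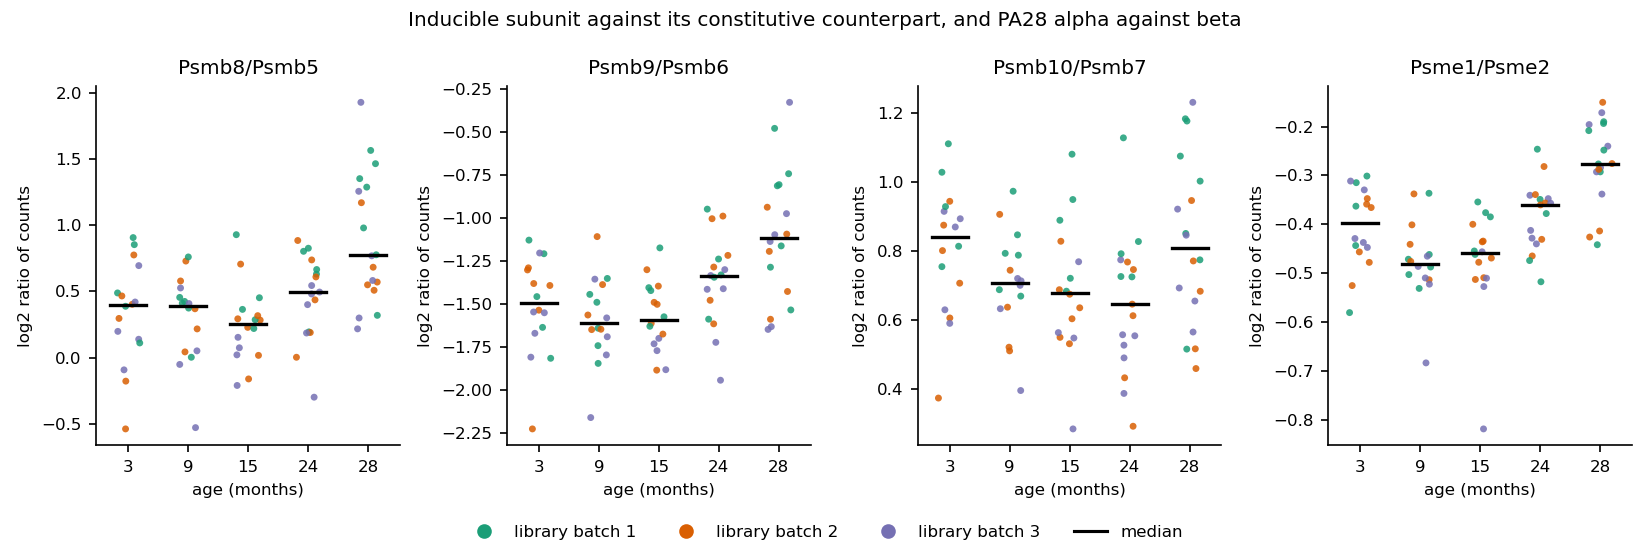
Log2 ratio of counts in each mouse by age for Psmb8/Psmb5, Psmb9/Psmb6, Psmb10/Psmb7 and Psme1/Psme2, coloured by library batch, with the median of each age as a line (axes do not start at a common value). The median of Psmb8/Psmb5 is 0.40 at 3 months and 0.77 at 28 months, and that of Psme1/Psme2 is -0.40 and -0.28.

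Beyond the members, 39 other genes of the ubiquitin-proteasome system were examined. At 28 against 3 months 17 fell and 3 rose, and at 28 against 15 months 15 fell and 4 rose, so their shares lower (43.6% and 38.5%) also stood above those of all genes given above. Of the 13 ubiquitin receptors and proteasome-bound enzymes, 9 fell at 28 against 3 months (25.9% of all genes) and 9 at 28 against 15 months (22.2% of all genes). They were not the same 9, since the shuttle protein Ubqln1 passed only in the first comparison and Zfand5 only in the second. Syvn1, a ubiquitin ligase of the endoplasmic reticulum, had 91.6 to 164 CPM at 3 months (median 119), 64.1 to 140.6 at 15 months (median 119) and 81.8 to 104 at 28 months (median 89.6). It fell by 0.38 ± 0.06 at 28 against 3 months (adjusted p = 5.05e-07), the largest fall of the list, and also at 9 against 3 months and at 24 against 15 months, by 0.19 and 0.22. Zfand5, a zinc finger protein that binds the proteasome, had medians of 122 CPM at 24 months and 108 at 28 months and fell by 0.23 ± 0.04 between them (adjusted p = 0.000519).

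Of the 8 transcription factors and proteins that process them, 2 fell at 28 against 3 months (25.0%, beside 25.9% of all genes). At 28 against 15 months 1 fell and 1 rose (12.5% each), beside 22.2% lower and 20.2% higher among all genes. Nfe2l1, which drives proteasome genes when proteolysis is blocked, fell by 0.13 at 28 against 3 months (adjusted p = 0.000232) and stood at -0.03 at 28 against 15 months (adjusted p = 0.448). Ddi2, the protease that activates it, fell by 0.28 (adjusted p = 7.24e-07) and by 0.16 (adjusted p = 0.00481) in the same comparisons. The E1 enzyme Uba1 fell by 0.13 and by 0.09, whereas Uba6 fell by 0.25 at 28 against 3 months and stood at -0.06 at 28 against 15 months (adjusted p = 0.555). Of the 4 ubiquitin genes none passed the threshold of edgeR's test, and 0 had an unadjusted p under 0.05, in any comparison with 28 months. Ufd1, a cofactor of the segregase Vcp, rose by 0.12 at 28 against 3 months and by 0.08 at 28 against 15 months, and Vcp itself fell by 0.09 and by 0.11.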

How the data were processed

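RNA libraries (TruSeq stranded, polyA, 100 bp paired ends) were made from the colon of 83 mice. Per the submitters' processing notes and the methods of the study, reads were trimmed with cutadapt 2.8, aligned to GRCm38.p6 with HISAT2 2.1.0, and uniquely mapped pairs were counted by strand per gene with featureCounts (Subread 2.0.1). The authors deposited these as raw counts, whole numbers for each gene and mouse that were neither normalized nor pooled. Age and batch came from the labels. The members and lists were chosen with earlier results of these data known.

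Counts were fitted with edgeR 4.0.16 in R 4.3.3 (filterByExpr by age, TMM, quasi-likelihood test, age and library batch as terms, all mice in one fit), and p-values were adjusted by Benjamini-Hochberg over 18325 genes. CPM are counts per 1000000 of the TMM-scaled library, log2 CPM has a prior count of 2, and TPM used merged exon lengths of a GRCm38 annotation that held 37652 of the 37764 genes. Ratios of counts had a pseudocount of 0.5. Python 3.11.15 was used for the permutation tests. The scripts were tested on simulated data. Mice of one age differed by at least 11.5 times the counting noise in each of 649 pairs, so no library was counted as a repeat. A p-value here sets a difference between ages against the spread between mice. The noise ratio was taken over 12564 genes with at least 50 counts in every mouse. It does not give the part of counting noise in the spread of a single gene. That part was not measured for members with fewer counts, such as Psmg4 (282 on average) and Psmg2 (444).

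Named with values were the catalytic subunits, Psmd14, Psme1 to Psme4 and Psmf1, per comparison at most the 3 largest rises and 3 largest falls among called members whose CPM averaged 1 or more and whose sign was shared by all batches, the 3 lowest p-values of the tests over ages, and the largest change of the other pathway genes. Other named genes were chosen after their values were seen. Alternatives were other scalings and filters, DESeq2 1.42.0, the replicate number as a block, a fit without batch, marker scores as covariates, a fit of 2 ages, a threshold of 0.05, other pseudocounts and leaving out mice. Paaf1 was not analysed here. In 32 of the 45 members no 100-base window was shared with another gene, and 7 members overlapped another gene on the same strand.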

Additional observations from a re-analysis of the deposited data

How the results depend on the processing

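Called members at 28 against 15 months numbered 28 and were 22 to 26 under 9 of the 10 other fits, and 14 kept their call under every one, as did 10 of 21 at 28 against 3 months, 2 of 3 at 28 against 24 months, 0 of 3 at 24 against 15 months and 1 of 1 at 9 against 3 months. Scaling by library totals alone gave 15 there, 1 at 24 against 15 months (3 in the report) and 12 over the 5 ages (26). At 28 against 3 months (21) marker scores as covariates gave 12, and so did leaving out the 3 mice of 3 months with few smooth muscle counts, which left 0 at 9 against 3 months (1). Leaving out the 9-month mouse next in smooth muscle counts as well gave 11 and 0. Marker scores gave 1 at 15 against 9 months (0), 6 at 28 against 24 months (3) and 8 departing from a straight line (5). At 28 against 24 months upper-quartile scaling gave 5, and so did a fit of those ages alone. At 24 against 15 months no filter on low counts gave 0, a minimum of 10 counts in each mouse 5, a fit without batch 1 and a threshold of 0.05 also 1. For the departure, no filter gave 2 and a threshold of 0.05 gave 1. The cause of these shifts was not tested, and the share of all genes called is not given for these settings. With batch means subtracted, the Psmb8 to Psmb5 ratio at 24 against 15 months (0.22) and the Psmb10 to Psmb7 ratio at 9 against 3 months (-0.11) passed the threshold. Leaving out each 28-month mouse gave 21 to 26 called at 28 against 15 months, 16 to 22 at 28 against 3 months and 2 to 4 at 28 against 24 months, and median fold changes of -0.08 to -0.07, -0.07 to -0.04 and -0.03 to -0.01. No called value changed sign under any setting. Leaving out mice, apart from each 28-month mouse at 28 against 3 months, was chosen after seeing the data. The replicate number as a block gave 25 called at 28 against 15 months and 19 at 28 against 3 months; the labels do not say that a number pairs mice, and the deviations of 161 pairs with the same number had a median r of 0.01. Differences of about 0.1 on the log2 scale are near the spread between mice, and members with few counts such as Psmb11 could not be tested.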
